A study of Mus musculus with 8 samples.

Results

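The 50 genes described here are interferon-stimulated genes and GTPases together with the receptors and transcription factors that control them. They were taken by gene symbol, and all 50 were found among the 18635 genes of the deposited table of normalized read counts. They were measured by RNA sequencing in tumor-educated macrophages (TEMs), which are bone marrow-derived macrophages (BMDMs) kept for 24 h in tumor-conditioned medium (TCM) of AE17 mouse mesothelioma cells. Phgdhfl/fl TEMs (n = 4) carried the floxed Phgdh allele without Cre, and Phgdhfl/fl Cx3cr1-Cre TEMs (n = 4) carried the same floxed allele with a Cre driven from the Cx3cr1 locus, so that every library came from floxed cells and the Cre and the deletion cannot be told apart. The mice were littermates on a C57BL/6 background aged 6 to 8 weeks, and the BMDMs were grown with L929-conditioned medium. BMDMs without TCM were not analysed here, and the labels call the samples of a group biological replicates without saying whether each came from a separate mouse, so that the p-values measure the spread between these samples.

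Type I interferons signal through IFNAR1 and IFNAR2 and lead to a complex with STAT2 and IRF9 that binds the interferon-stimulated response element (ISRE). Interferon gamma signals through IFNGR1 and IFNGR2 to genes that hold the gamma-activated sequence (GAS). Macrophages answer both with antiviral effectors such as the OAS, IFIT and MX proteins and with guanylate-binding proteins (GBPs) and immunity-related GTPases (IRGs), which act on vacuoles that hold microbes.

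Values are normalized counts, which are reads divided by a size factor of the library. Libraries held between 38219563 and 47027420 recovered reads. Phgdh, the target, had 117 ± 9.82 normalized counts (SD, n = 4) in Phgdhfl/fl TEMs and 27.1 ± 9.39 in Phgdhfl/fl Cx3cr1-Cre TEMs (log2 fold change -2.15, limma adjusted p = 5.1e-08), and Cx3cr1, the locus of the Cre, was lower as well (log2 fold change -0.70, limma adjusted p = 1.9e-09). Of the 8 macrophage markers, Csf1r, Cd68, Lyz2 and Mertk did not pass the test, while Fcgr1, Cd14, Itgam and Adgre1 were lower, with log2 fold changes between -0.40 and -0.08, and the summed level of the 8 lay between 1030180 and 1121130 in Phgdhfl/fl TEMs and between 1008580 and 1085170 in Phgdhfl/fl Cx3cr1-Cre TEMs. Of 52 markers in all, 27 were not analysed here. The markers of conventional dendritic cells summed to 7.24 to 29.6 normalized counts without Cre and 25.9 to 41.7 with it. Most of this was Zbtb46, which overlapped and did not pass (limma adjusted p = 0.064), while Flt3 and Clec9a were not tested. Those of fibroblasts and mesothelium summed to 24.9 to 37.2 and 20.8 to 51.5, those of T and NK cells to 9.20 to 15.5 and 7.12 to 21.4, and those of mast cells and basophils to 1.03 to 4.60 and 0 to 2.25. The plasmacytoid dendritic cell markers (4 of 6 measured) summed to 4504 to 4884 and 4313 to 4639.8 normalized counts, nearly all of it Tcf4, with Ccr9 at 6.75 or less in every library and Cox6a2 higher (log2 fold change 0.33). The single measured neutrophil marker S100a8 was higher (466.7 to 575 against 576 to 631), and the B cell marker Cd79b was lower (196 to 253 against 129 to 167). In bulk samples such as these, fewer cells of a type and less RNA per cell cannot be told apart, and the part of these markers in the results below was not tested.

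The module did not move as a block. Higher in Phgdhfl/fl Cx3cr1-Cre TEMs were 8 of the 50 genes, namely Gbp2, Gbp3, Gbp5, Gbp7, Ifi203, Ifi205, Ifit2 and Rsad2, and lower were 17, while 25 did not pass (limma on log2(normalized count + 1), adjusted p under 0.05 over all 13629 tested genes). Over all tested genes 20.8% were higher and 20.3% lower (41.0% in either direction). Replicates lay close together (biological coefficient of variation 0.0288 by edgeR), and small differences passed. The members stood at 16.0% higher and 34.0% lower, and their median log2 fold change was -0.06 against -0.0018 over all tested genes. They were also better counted, with a median level of 2890 normalized counts against 831 over all tested genes. Small differences pass more easily at high counts. Neither these shares nor those of the other pathway genes below were matched for level, and its part in them was not tested. A log2 fold change over 0.322 in size was reached by 5 called members, all of them higher (Gbp2, Gbp3, Gbp5, Gbp7 and Ifi205), where 10.1% of tested genes were called with such a size, 6.37% higher and 3.68% lower. The lowest member, Rtp4, was at a log2 fold change of -0.27. In 18 members the libraries of the genotypes were fully separate, 6 of them higher and 12 lower, where all tested genes gave 18.4% and 18.2% (36.7% in either direction).

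**Figure D1:**
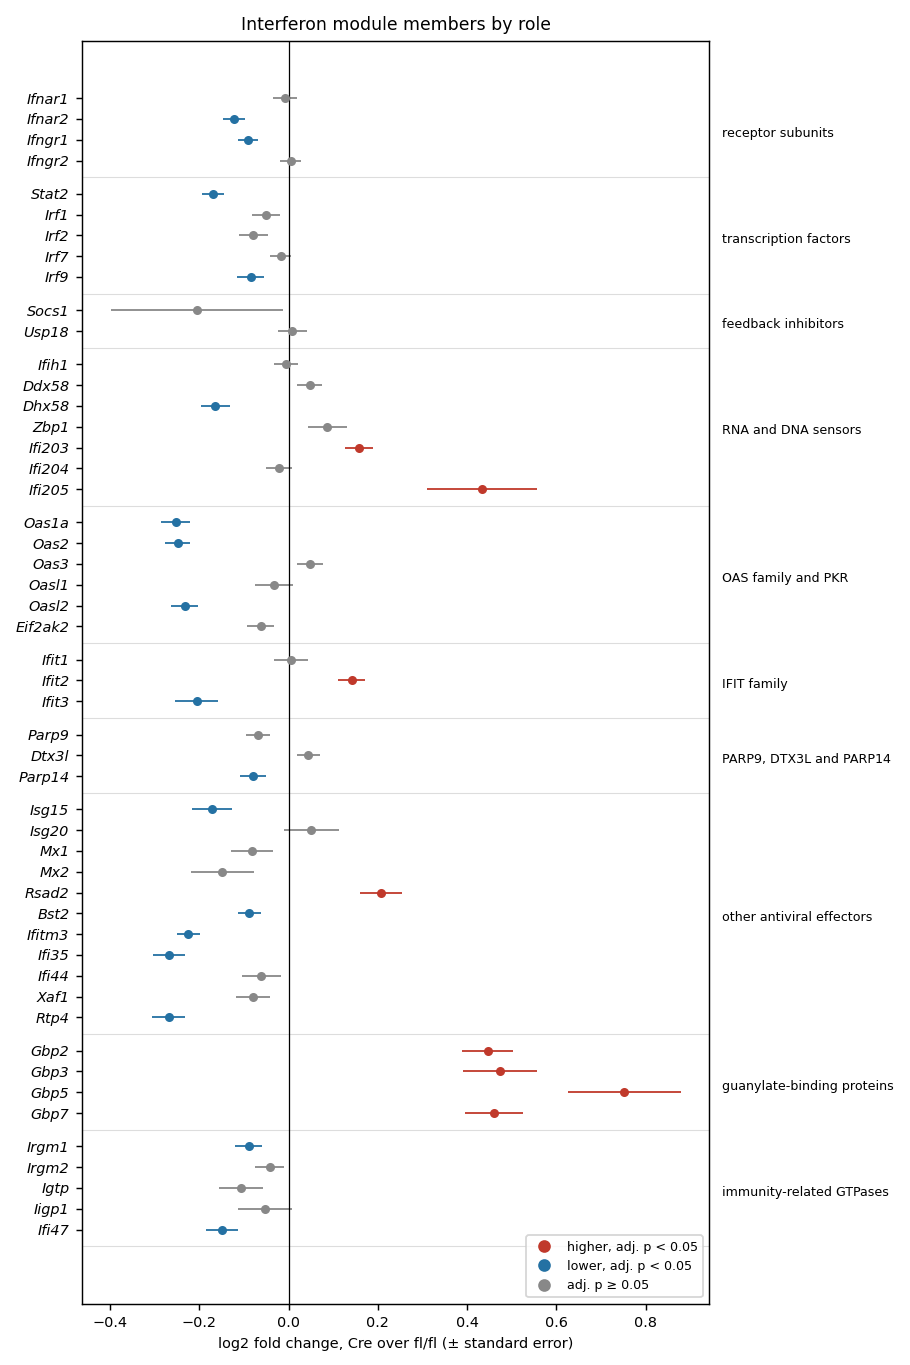
Log2 fold change of each of the 50 members in Phgdhfl/fl Cx3cr1-Cre over Phgdhfl/fl TEMs (horizontal axis, points with bars of 1 standard error), grouped by role. The 4 Gbp genes lie between 0.45 and 0.75, and Rtp4 is the lowest member at -0.27.

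The 4 GBPs of the list were all higher, by 1.36 to 1.67 times. GBPs are large GTPases that are strongly induced by interferon gamma and gather on the membranes of intracellular microbes. Gbp2 (ENSMUSG00000028270, chr3:142620602-142638008, plus strand of mm10) stood at 550.4, 631, 666 and 586 normalized counts in Phgdhfl/fl TEMs and at 859.6, 847, 767 and 838 in Phgdhfl/fl Cx3cr1-Cre TEMs. The lowest library with the Cre lay above the highest without it. The means were 608 ± 50.6 and 828 ± 41.8 (SD, n = 4 each), which gave a log2 fold change of 0.45 ± 0.06 (SE, the standard error of the fit, limma adjusted p = 1.9e-06).

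Gbp3 (ENSMUSG00000028268, chr3:142560026-142573209) stood at 248, 253, 204 and 251 normalized counts against 363, 327, 295 and 341. The genotypes did not overlap, and the third library of Phgdhfl/fl TEMs lay below the others. Its log2 fold change of 0.47 ± 0.08 (SE, limma adjusted p = 9.5e-05) came from means of 239 ± 23.6 and 332 ± 28.7. Without that library it was 0.40.

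Gbp5 (ENSMUSG00000105504, chr3:142493978-142522344), which is known for a role in inflammasome activation, had the fewest reads of the 4 and the largest fold. It stood at 74.4, 105, 86.8 and 115 normalized counts without Cre and at 179, 161, 149 and 149 with it. All libraries with the Cre were again above all without. The means were 95.4 ± 18.3 and 159.6 ± 14.1, a log2 fold change of 0.75 ± 0.13 (SE, limma adjusted p = 5.6e-05).

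Gbp7 (ENSMUSG00000040253, chr3:142530342-142550149) varied least with the Cre. It stood at 307, 284, 326 and 278 normalized counts in Phgdhfl/fl TEMs and at 407, 401, 408 and 425 in Phgdhfl/fl Cx3cr1-Cre TEMs, without overlap. Its means were 299 ± 21.9 and 410.3 ± 10.3, a log2 fold change of 0.46 ± 0.07 (SE, limma adjusted p = 7.7e-06). For each of the 4 genes an exact permutation test of the libraries (two-sided) gave 0.029, which is the smallest p that 4 against 4 allow. GBP genes are close copies of each other, so that the counting could have split or lost reads between them, and the 4 values may not be independent.

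**Figure D2:**
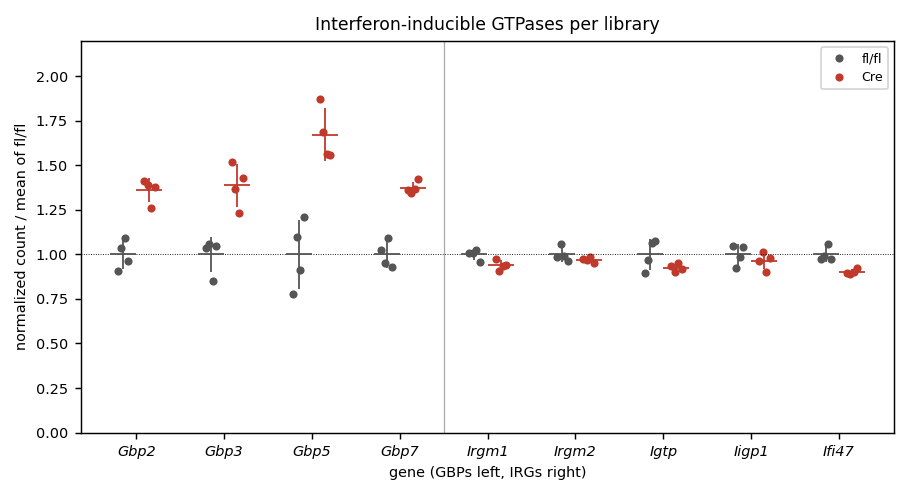
Level of the 4 guanylate-binding proteins and the 5 immunity-related GTPases in each library, with the group mean and its standard deviation. Values are normalized counts divided by the mean of that gene in Phgdhfl/fl TEMs, so that levels cannot be compared between genes. All libraries of Phgdhfl/fl Cx3cr1-Cre TEMs lie above all libraries of Phgdhfl/fl TEMs for the Gbp genes, and the direction is not shared by Irgm1 and Ifi47, which were lower.

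The 4 genes lie together on chromosome 3, from Gbp5 to Gbp2 within 144.0 kb. Within 500 kb, the genes that flank them did not all share their direction. Pdlim5 was lower (log2 fold change -0.21, limma adjusted p = 1.7e-05) and Gtf2b was lower (-0.10, limma adjusted p = 0.01), Pkn2 was higher (0.12, limma adjusted p = 0.02), and Kyat3 did not pass (0.32, limma adjusted p = 0.18). Gbp2b, inside the cluster, had a mean of 4.77 and 3.84 normalized counts and was not tested. Phgdh lies on the same chromosome, 44.2 Mb from Gbp5.

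A cluster on chromosome 5 holds further Gbp genes that are not members. There Gbp4 was higher (66.9, 79.2, 76.5 and 62.0 against 120.4, 121, 114 and 124 normalized counts, log2 fold change 0.75, limma adjusted p = 2.8e-05). Gbp8 was higher as well (0.58, limma adjusted p = 0.003), with genotypes that overlapped. Gbp9 was higher by 0.14 (limma adjusted p = 0.036) and Gbp6 did not pass (0.10, limma adjusted p = 0.41). These genes stood on the list of other pathway genes, and Gbp6 and Gbp9 were named after their values were seen. Of the other tested genes within 500 kb of Gbp4, Lrrc8b was higher without overlap (0.23, limma adjusted p = 0.00055). Zfp951 (0.18), Abcg3 (-0.16), Lrrc8c (0.07) and Gm42141 (0.30) did not pass. The annotated spans of Gbp4, Gbp8 and Gbp9 overlap, and whether reads were lost or moved between them was not tested.

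**Figure D3:**
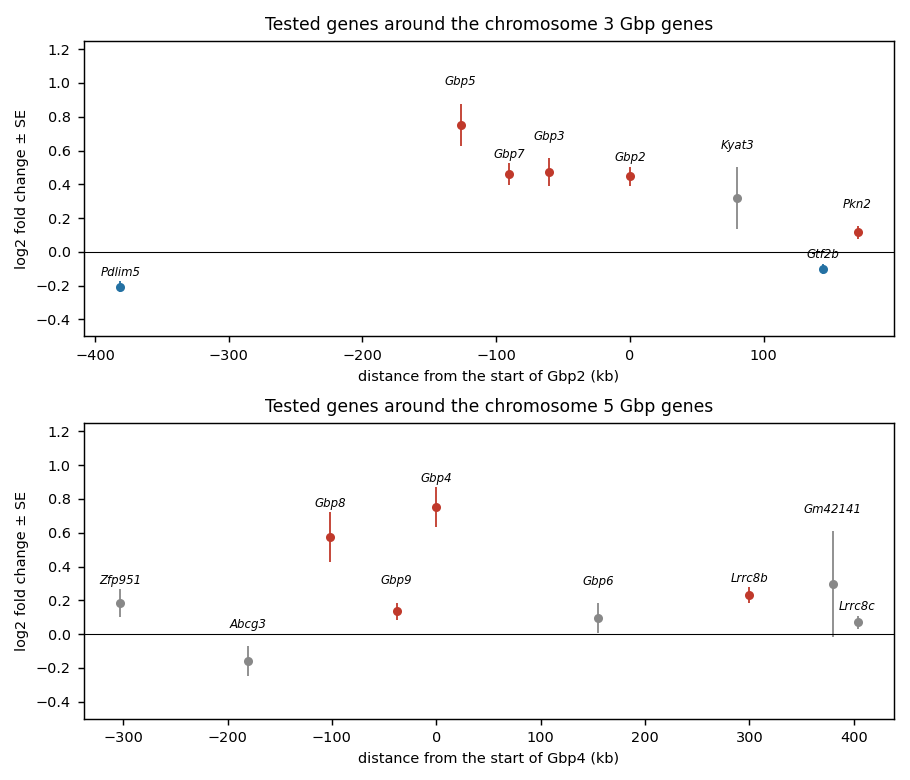
Log2 fold change (vertical axis, with 1 standard error) of tested genes around Gbp2 on chromosome 3 and around Gbp4 on chromosome 5, against distance from that gene in kb. The Gbp genes stand above their neighbours at 0.45 to 0.75 around Gbp2, while Pdlim5 and Gtf2b lie below 0.

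The promoters of these genes are shown because the transcription factors of interferon signalling act at the promoters of their targets. The lines below give the 180 bases before the RefSeq start site (GRCm38.p6, strand of the gene, 5′ to 3′), with matches in capitals to the ISRE core (GAAA, any 2 bases and GAAA again, or on the other strand TTTC, any 2 bases and TTTC) and to the GAS core (TTCNNNGAA, which reads alike on both strands). Overlapping matches run together.
Gbp2: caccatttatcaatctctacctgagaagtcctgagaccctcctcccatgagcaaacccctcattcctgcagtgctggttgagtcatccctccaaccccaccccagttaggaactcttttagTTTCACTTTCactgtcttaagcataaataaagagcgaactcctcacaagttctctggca
Gbp3: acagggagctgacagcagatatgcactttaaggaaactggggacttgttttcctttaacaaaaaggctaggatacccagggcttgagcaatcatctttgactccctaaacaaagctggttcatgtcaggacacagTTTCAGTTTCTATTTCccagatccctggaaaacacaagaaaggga
Gbp5: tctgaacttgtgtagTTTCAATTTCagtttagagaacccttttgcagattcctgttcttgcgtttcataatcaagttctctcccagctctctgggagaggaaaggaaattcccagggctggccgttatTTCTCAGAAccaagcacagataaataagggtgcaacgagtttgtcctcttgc
Gbp7: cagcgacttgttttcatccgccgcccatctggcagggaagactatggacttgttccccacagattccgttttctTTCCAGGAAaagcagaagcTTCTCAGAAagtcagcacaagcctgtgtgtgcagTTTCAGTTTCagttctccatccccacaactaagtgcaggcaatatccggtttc
The windows lie at chr3:142620483-142620662, chr3:142559864-142560043, chr3:142496754-142496933 and chr3:142530156-142530335, all on the plus strand. Gbp3 has 2 windows in the RefSeq table, and the most upstream is shown. Each of the 4 holds an ISRE core within these 180 bases, while a GAS core is seen in the windows of Gbp5 and Gbp7. An ISRE core also stands in the following genes, which were not higher. Irgm2 and Igtp are IRGs on chromosome 11, and Isg15 is a classical target of type I interferon.
Irgm2: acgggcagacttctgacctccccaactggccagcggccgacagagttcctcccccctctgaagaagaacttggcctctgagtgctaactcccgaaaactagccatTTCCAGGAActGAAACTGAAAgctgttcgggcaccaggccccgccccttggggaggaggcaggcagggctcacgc
Igtp: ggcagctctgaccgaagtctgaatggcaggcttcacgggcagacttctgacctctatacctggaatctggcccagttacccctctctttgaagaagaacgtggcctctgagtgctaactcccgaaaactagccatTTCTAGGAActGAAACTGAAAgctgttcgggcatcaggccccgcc
Isg15: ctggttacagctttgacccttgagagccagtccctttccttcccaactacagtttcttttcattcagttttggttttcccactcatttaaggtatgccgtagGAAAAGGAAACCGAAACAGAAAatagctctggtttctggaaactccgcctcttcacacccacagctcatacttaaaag
They lie at chr11:58214797-58214976 and chr11:58199376-58199555 on the plus strand and at chr4:156200819-156200998 on the minus strand. A promoter window of 300 bases, 250 before and 50 after the start, was found for 39 of the 50 members. The ISRE core was in 23 of these (59.0%) against 3.99% of 27025 genes, and the GAS core in 15 (38.5%) against 9.55%. By call, the ISRE core was in 7 of 8 higher, 7 of 13 lower and 9 of 18 uncalled members, and the GAS core in 3, 5 and 7 of them. A match is a run of letters, not a measured site.

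The 5 IRGs, which interferon gamma induces beside the GBPs, did not follow them. Ifi47 (IRG-47) was lower. It stood at 1653, 1684, 1797 and 1648 normalized counts in Phgdhfl/fl TEMs and at 1517, 1506, 1525 and 1565 in Phgdhfl/fl Cx3cr1-Cre TEMs, so that the genotypes did not overlap (log2 fold change -0.15 ± 0.03 SE, limma adjusted p = 0.0016). Irgm1, a regulator of the other IRGs, stood at 3458, 3469, 3528 and 3285 against 3346, 3122, 3219 and 3226. Its genotypes overlapped, and its log2 fold change of -0.09 (limma adjusted p = 0.019) did not pass without the third library of Phgdhfl/fl TEMs (limma adjusted p = 0.066) or the second of Phgdhfl/fl Cx3cr1-Cre TEMs (0.081), nor with all libraries in a fit without a mean-variance trend (0.068). Irgm2, Igtp and Iigp1 did not pass, with log2 fold changes of -0.04, -0.11 and -0.05. Igtp ranged from 1097 to 1317 without Cre and from 1108 to 1164 with it, and without the first library of Phgdhfl/fl TEMs it would have been called lower (log2 fold change -0.16, limma adjusted p = 0.0039). Irgm2 and Igtp share 162 exon bases on the same strand. Among the listed members, the highest log2 fold change of an IRG, -0.04, lay below the lowest of a GBP, 0.45. Outside the list, the IRG genes Tgtp2 (0.14, limma adjusted p = 0.31) and Gm12250 (-0.05, limma adjusted p = 0.52) did not pass. Tgtp2 stood level with Gbp9 (0.14) and above Gbp6 (0.10), so that the gap holds for the listed members only.

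Upstream of the effectors, the receptor subunits differed little. Ifnar2, the high-affinity chain of the type I receptor, was lower in all libraries with the Cre. It stood at 4092, 4188, 4159 and 4288 normalized counts in Phgdhfl/fl TEMs and at 3839, 3847, 3842 and 3844 in Phgdhfl/fl Cx3cr1-Cre TEMs (log2 fold change -0.12 ± 0.02 SE, limma adjusted p = 0.00045). The 4 libraries with the Cre lay below the lowest without it. Their standard deviation of 3.57 was smaller than counting error alone gives at 3412 to 3953 reads, so that it does not measure the spread between replicates. Ifngr1, the ligand-binding chain for interferon gamma, went from 11045 ± 169 to 10366 ± 171 (SD, n = 4 each), again without overlap (log2 fold change -0.09, limma adjusted p = 0.0021). Ifnar1 and Ifngr2 did not pass (log2 fold changes of -0.0078 and 0.0046). Of the interferon ligands, Ifnb1 lay between 0 and 6.51 normalized counts and was not tested, and the other 9 listed ligands were not analysed here.

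Among the transcription factors, Stat2, which carries the type I signal to the nucleus, had the lowest log2 fold change of the 5. It stood at 6572, 6450.2, 6459.6 and 6269 normalized counts without Cre and at 5869.9, 5679.5, 5627 and 5725 with it. The genotypes did not overlap (log2 fold change -0.17 ± 0.02 SE, limma adjusted p = 8.7e-06). Irf9, the DNA-binding subunit of the same complex, went from 3329.9 ± 59.8 to 3141 ± 124 with overlap (log2 fold change -0.08, limma adjusted p = 0.028). Its call was lost without the second or the third library of Phgdhfl/fl TEMs (limma adjusted p = 0.072 and 0.074) and without the second or the fourth of Phgdhfl/fl Cx3cr1-Cre TEMs (0.14 and 0.061), and with all libraries kept it was lost under total-read scaling (0.069) and without a mean-variance trend (0.087). Irf1, Irf2 and Irf7 did not pass (log2 fold changes of -0.05, -0.08 and -0.02). Irf2, which often opposes IRF1, passed without the first library of Phgdhfl/fl TEMs or the third of Phgdhfl/fl Cx3cr1-Cre TEMs (limma adjusted p = 0.014 in both). With all libraries kept it passed with the replicate number as a block (limma adjusted p = 0.025), after quantile normalization (0.026) and with a minimum mean of 50 (0.048). The feedback inhibitors gave no call. Socs1, which blocks the JAK kinases, was close to the limit of counting at 28.2 to 48.8 normalized counts, and Usp18, which removes ISG15 and dampens IFNAR2, was at 2262 ± 79.5 and 2275 ± 69.7.

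Some further kinases and factors of the pathway are not members. The kinases Jak1, Jak2 and Tyk2 were higher, with log2 fold changes of 0.12, 0.20 and 0.14 (limma adjusted p = 0.00014, 1.9e-05 and 0.00035). Their genotypes did not overlap, where 18.4% of all tested genes were higher and 18.2% lower without overlap. Irf5 (-0.33), Irf8 (-0.20), Irf3 (-0.11) and Nmi (-0.25) were lower, and Batf2 did not pass. Over all tested genes 20.8% were called higher and 20.3% lower.

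The sensors of foreign nucleic acid split. Ifih1 (MDA5) and Ddx58 (RIG-I), which detect viral RNA, did not pass (log2 fold changes of -0.01 and 0.05), while Dhx58 (LGP2), their regulator, stood at 2282, 2112, 2096 and 2179 normalized counts against 1944, 1915, 1894 and 1983 and was lower without overlap (log2 fold change -0.16 ± 0.03 SE, limma adjusted p = 0.00038). Zbp1, a sensor that can start necroptosis, did not pass (0.09, limma adjusted p = 0.12), but passed without the second library of Phgdhfl/fl TEMs (0.12, limma adjusted p = 0.045). Of the Ifi200 genes on chromosome 1, Ifi203 stood at 3083, 2987, 3133 and 2957 against 3339, 3419, 3248 and 3559.5 and was higher without overlap (log2 fold change 0.16 ± 0.03 SE, limma adjusted p = 0.00031). Ifi205 was higher at 99.5, 92.0, 98.2 and 129 against 164, 141, 118 and 142. Its genotypes overlapped, since the fourth library without Cre lay above the third with it (log2 fold change 0.43 ± 0.12 SE, limma adjusted p = 0.0074). Ifi204 did not pass (7951 ± 396 and 7831 ± 105). These genes are similar in sequence and lie side by side, so that reads may have been shared between them. Of the neighbours in the same cluster, Ifi207 was lower (-0.09) and Mndal, Ifi206, Ifi208, Ifi209, Ifi211, Ifi213 and Ifi214 did not pass. Aim2, which starts more than 500 kb from the start of Ifi203, was higher without overlap (0.12, limma adjusted p = 0.0012).

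The oligoadenylate synthetases, which make the signal that switches on RNase L, and Eif2ak2 (PKR), which halts translation, gave 3 lower genes of 6 and no higher gene, where 20.3% of all tested genes were lower and 20.8% higher, so that the absence of a higher call in 6 genes says little. Oas1a stood at 2625, 2846, 2798 and 2882 normalized counts in Phgdhfl/fl TEMs and at 2336, 2318, 2414 and 2287 in Phgdhfl/fl Cx3cr1-Cre TEMs. It was lower without overlap (log2 fold change -0.25 ± 0.03 SE, limma adjusted p = 2e-06), and its near copy Oas1g, which is not a member, was also lower (-0.25, limma adjusted p = 0.00014). Of the further Oas1 copies, Oas1b (-0.09, limma adjusted p = 0.32) and Oas1c (0.09, limma adjusted p = 0.16) did not pass. Reads may have been split between these copies, so that the values of Oas1a and Oas1g may not be independent. Oas2 stood at 4226, 4239, 4205 and 3956 against 3503, 3477, 3559 and 3451, a log2 fold change of -0.25 ± 0.03 (SE, limma adjusted p = 3.2e-07). Oasl2, a relative with a ubiquitin-like end, went from 9383 ± 435 to 7982 ± 283, again without overlap (-0.23, limma adjusted p = 3.2e-06). Oas3 and Oasl1 did not pass (0.05 and -0.03), and they lie beside Oas2 and Oasl2 on chromosome 5. Eif2ak2 did not pass (-0.06, limma adjusted p = 0.11), and without the fourth library of Phgdhfl/fl TEMs it was called lower (-0.09, limma adjusted p = 0.026), as it was after quantile normalization with all libraries (0.032). Oas3 passed as higher without the first library of Phgdhfl/fl TEMs (0.07, limma adjusted p = 0.039).

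**Figure D4:**
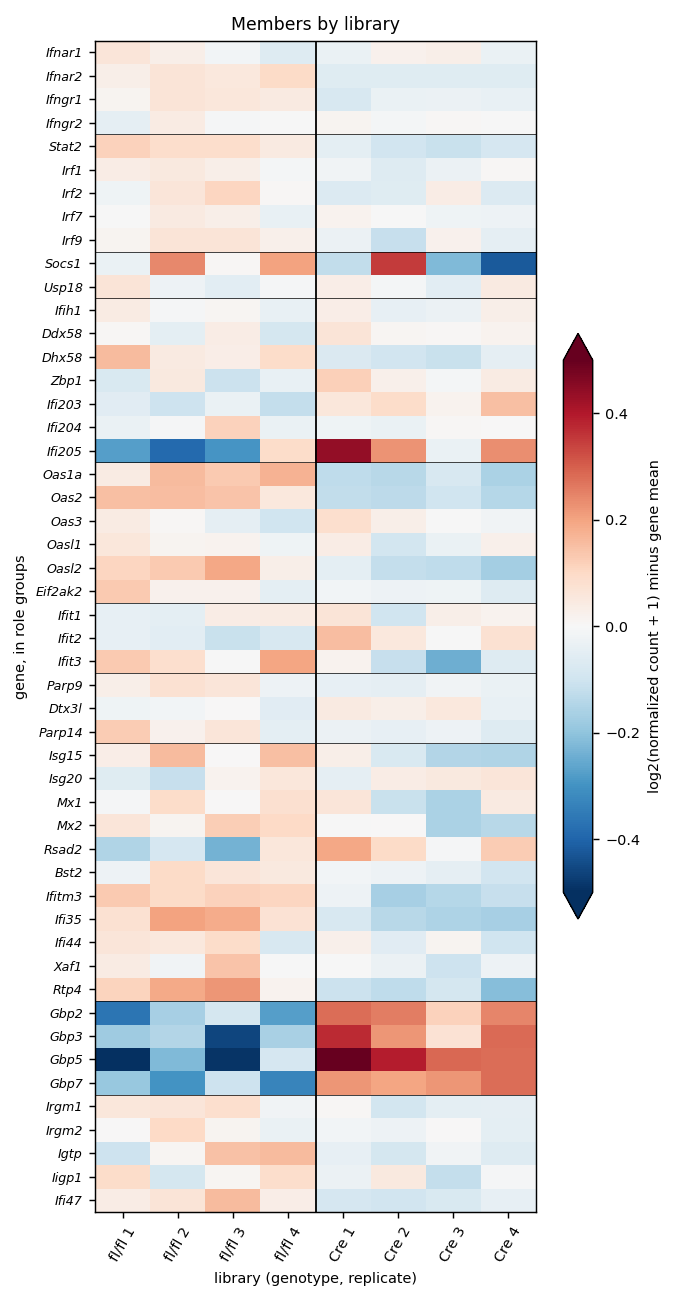
Deviation of each member from its own mean over the 8 libraries, in log2 units, with genes grouped by role and libraries by genotype. Colours saturate at the ends of the scale. The Gbp rows change colour with the genotype in every library, and the rows of Oas1a, Oas2 and Rtp4 do so in the other direction.

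The IFIT genes on chromosome 19, whose proteins bind foreign RNA, divided among all outcomes. Ifit2 was higher (5256, 5212, 4997 and 5113 against 6012, 5606, 5397 and 5697 normalized counts, log2 fold change 0.14 ± 0.03 SE, limma adjusted p = 0.00057) and did not overlap. Ifit3 was lower (1727, 1669.6, 1574 and 1806 against 1593, 1453, 1331 and 1506, log2 fold change -0.21 ± 0.05 SE, limma adjusted p = 0.0016), with overlap. Ifit1 did not differ in its test (1709 ± 57.9 and 1716 ± 83.0). Ifit3 has a near copy, Ifit3b, which did not pass (0.05, limma adjusted p = 0.72), and reads may have been split between them. Of the PARP9, DTX3L and PARP14 genes on chromosome 16, whose proteins regulate interferon signalling by ADP-ribosylation and ubiquitination, Parp14 was lower (-0.08, limma adjusted p = 0.033), with 10434 ± 529 and 9869.6 ± 117 normalized counts. That call was lost without the first (limma adjusted p = 0.1) or the third (0.084) library of Phgdhfl/fl TEMs and without the first, the second or the fourth of Phgdhfl/fl Cx3cr1-Cre TEMs (0.051, 0.066 and 0.091), and with all libraries kept it was lost under total-read scaling (0.087) and without a mean-variance trend (0.15). Dtx3l (0.04) and Parp9 (-0.07) did not pass. Parp9 was called lower without the first (limma adjusted p = 0.045) or the fourth (0.016) library of Phgdhfl/fl TEMs, and with all libraries after quantile normalization (0.015) or with a minimum mean of 50 (0.045). Parp9 and Dtx3l share 458 exon bases on opposite strands and lie head to head.

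Of the 11 other antiviral effectors, 5 were lower, 1 was higher and 5 did not pass. Over all tested genes 20.3% were lower and 20.8% higher, so that 1 higher gene in 11 says little. Isg15, a ubiquitin-like modifier, stood at 1406, 1536, 1378 and 1527 normalized counts against 1404, 1303, 1242 and 1240.0, and its genotypes overlapped (log2 fold change -0.17 ± 0.04 SE, limma adjusted p = 0.0039). Ube2l6, the enzyme that conjugates it, was lower by 0.30 on the log2 scale as well. Ifitm3, a block to virus entry and the most abundant member per kb of exon, stood at 37162, 36305, 36777 and 36635 against 33348, 30312, 30806 and 31338. It was lower without overlap (log2 fold change -0.22 ± 0.03 SE, limma adjusted p = 4.6e-07).

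Ifi35, a binding partner of NMI (-0.27, 2162 ± 101 against 1794 ± 49.2 normalized counts) and Rtp4, a receptor-transporting protein (-0.27, 4358 ± 267 against 3614 ± 133) were the lowest members, without overlap in either, with limma adjusted p = 3.1e-06 and 5e-06. Bst2 (tetherin), which holds virus particles at the surface, went from 18608 ± 654 to 17505 ± 437 (-0.09, limma adjusted p = 0.0094). Its call was lost when the values were quantile-normalized (limma adjusted p = 0.1) or fitted without a mean-variance trend (0.078). Rsad2 (viperin), which interferes with virus replication, was the only gene of this group called higher. It stood at 3087, 3233, 2908 and 3567 against 3919, 3664, 3415 and 3743, with overlap (log2 fold change 0.21 ± 0.05 SE, limma adjusted p = 0.0013). Without the mean-variance trend its limma adjusted p was 0.054. The neighbouring Cmpk2, which is no member, was lower by 0.15 on the log2 scale (limma adjusted p = 0.012).

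Isg20, an RNase, Mx1 and Mx2, of the dynamin-like GTPases, Ifi44, and Xaf1, which opposes the apoptosis inhibitor XIAP, did not pass. Mx2 did not overlap (279.8 to 302 against 248 to 277 normalized counts), and its limma adjusted p was 0.097 (log2 fold change -0.15), with 0.045 after quantile normalization and 0.046 without a mean-variance trend.

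Members varied little between libraries of a genotype. The coefficient of variation had a median of 3.98% in Phgdhfl/fl TEMs, from 0.97% for Ifitm3 to 19.2% for Gbp5. In Phgdhfl/fl Cx3cr1-Cre TEMs the median was 3.07%, from 0.093% for Ifnar2, which lies below counting error, to 24.7% for Socs1. Per kb of exon the level in Phgdhfl/fl TEMs ran from 14.1 normalized counts for Socs1 to 54159 for Ifitm3, and Gbp5 was second lowest at 14.4. In each library, the median deviation of the 4 GBPs from their own means lay between -0.28 and -0.19 without Cre and between 0.17 and 0.33 with it, while that of the other 46 members lay between 0.02 and 0.05 and between -0.04 and -0.01.

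**Figure D5:**
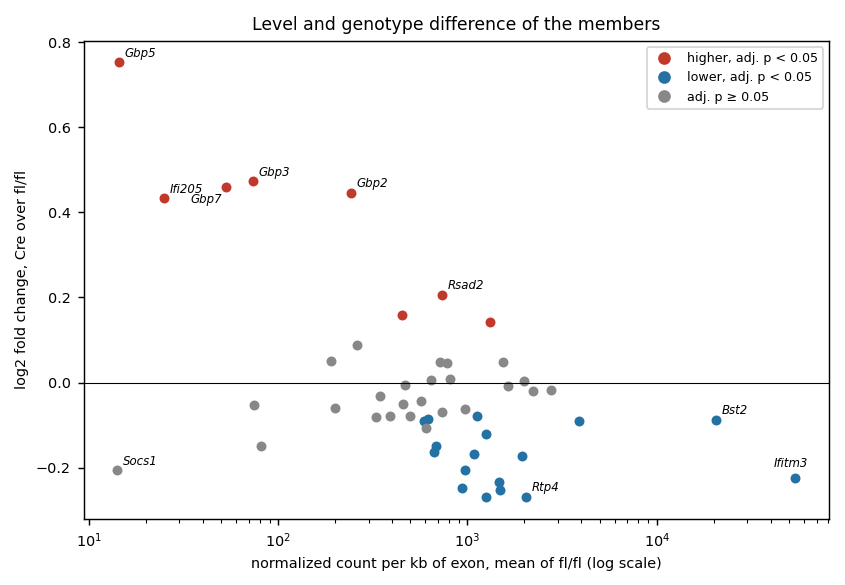
Log2 fold change (vertical axis) of each member against its level in Phgdhfl/fl TEMs in normalized counts per kb of exon (horizontal axis, log scale), with called and uncalled members marked. The 4 Gbp genes and Ifi205 lie at 242 or less per kb and at 0.43 or more, while Ifitm3 at 54159 is lower by 0.22.

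The other interferon-pathway genes, a list of 116 chosen beside the members, of which 99 were found and 94 tested, gave 22 higher and 31 lower (56.4% called against 41.0% of all tested genes), with a median of -0.02. The 6 highest were Ciita, the activator of MHC class II genes (0.96), Gbp4 and Gbp8, Socs3, which restrains IL-6 family signals (0.47), Ms4a4c (0.40) and Tmem140 (0.32). Ciita was at only 6.44 to 23.8 normalized counts without Cre and 20.3 to 31.5 with it, and overlapped. Among the lowest were Fcgr1, the high-affinity IgG receptor (-0.40), Irf5, Ube2l6, Ifitm6 (-0.26) and Slfn4 (-0.25). Fcgr1 stood at 17337 ± 393 and 13108 ± 149 normalized counts, without overlap. Fcgr1 is also a macrophage marker and stands in that list above. Of 10 tested genes of upstream sensing, 4 were higher (20.8% of all tested genes), namely the endosomal nucleic acid receptors Tlr7 (0.24) and Tlr9 (0.26), the adaptor Ticam1 (0.11) and the ubiquitin ligase Trim25 (0.09), and Tmem173 (STING) was lower (-0.11). Of 5 feedback genes, Socs3 was higher and the phosphatases Ptpn2 (-0.15) and Ptpn6 (-0.17) were lower. Over all tested genes 20.8% were higher and 20.3% lower, and 5 genes are too few to set against these shares.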

How the data were processed

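RNA from 4 Phgdhfl/fl and 4 Phgdhfl/fl Cx3cr1-Cre TEM samples was sequenced from NEBNext Ultra Directional libraries. The authors mapped single-end reads to mm10 with TopHat2, counted them per gene with HTSeq 0.6 and compared the genotypes with DESeq2, and the strand setting of the counting is not given in the sources used here. The deposited values are a signal per gene and library, namely reads divided by a size factor (0.889 to 1.09), although the methods speak of FPKM. Whole reads were recovered for 100% of 144353 values above 0 (within 0.01 read). The deposited table also holds the authors' mean and comparison columns (log2 fold change with its standard error, Wald score, p-value and adjusted p-value), which were not used here.

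Groups came from the labels. The genotypes were compared with limma 3.58.1 under R 4.3.3 (linear model without covariates, two-sided moderated test, prior variance following the mean) on log2(normalized count + 1) for the 13629 genes with a mean of at least 10, with Benjamini-Hochberg adjustment over all of them. This scale understates the change of low genes. Every fold change is Phgdhfl/fl Cx3cr1-Cre over Phgdhfl/fl. An exact permutation over the 70 labelings (two-sided) served for single genes. Alternatives were edgeR 4.0.16 and DESeq2 1.42.0 on the recovered reads, 0.1 as the pseudocount, tests with no filter and with a minimum mean of 50, quantile normalization, total-read scaling, no trend, a replicate block and leaving out each library. On simulated data of this design with 200 changed genes, limma called 177 rightly and 2 unchanged genes. The simulation gave every gene the same biological coefficient of variation of 0.03. It changed far fewer genes than the 41.0% called in the data, so that its error rate does not carry over to them. Gene positions are from GENCODE M21 (mm10, 18629 of 18635 genes found) and promoters from RefSeq (GRCm38.p6).

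All 50 members are named, with their role groups. Of the other pathway genes, the text names the 6 highest and the 6 lowest called, the kinases and factors and any ligand, except for an item that is not reported here. Other genes named were picked after their values were seen. They are neighbours of the Gbp and Ifi200 genes, the Oas1 copies, Ifit3b, Cmpk2, Tgtp2 and Gm12250. Called genes of upstream sensing and feedback were picked in the same way. The members and lists were chosen with earlier results of these data known. Counting error and the spread between replicates set the precision, and the labels name no batch.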

Additional observations from a re-analysis of the deposited data

Results flagged for a closer look

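Of 100 sets of 4 libraries tested among the members, 4 held a library whose gap to its nearest neighbour exceeded Dixon's critical value for 4 samples. Chance flags about 1 in 20 such sets. In Phgdhfl/fl Cx3cr1-Cre TEMs, Ifngr1 was lowest in replicate 1 at 10112.9 normalized counts, where the other 3 lay between 10417 and 10475. Irf2 was highest in replicate 3 of the same group at 3691.29, against 3428 to 3445 in the others. In Phgdhfl/fl TEMs, Oas2 was lowest in replicate 4 at 3956.41, where the others lay between 4205 and 4239. Gbp3 was lowest in replicate 3 at 203.639, against 248 to 253. The cause of these values was not tested.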

How the results depend on the processing

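The number of genes called lay between 4930 and 5608 over the alternatives that kept all libraries and between 4966 and 5917 with a library left out, against 5594 as reported. Called members numbered 21 to 28 (22 to 28 with a library left out) against 25, of which 7 to 9 were higher and 14 to 20 lower, and their median stayed between -0.07 and -0.05. Of the 25 called members, 20 passed in every setting run. Lost in some were Bst2, Irf9, Irgm1, Parp14 and Rsad2, and 7 uncalled members passed in some (Eif2ak2, Igtp, Irf2, Mx2, Oas3, Parp9 and Zbp1). In 19 of 849 single-gene values the sign changed, each for a gene with no call in either fit. With total-read scaling Ifnar1 was at 0.0073 and Ifih1 at 0.0099, and with quantile normalization Ifngr2 was at -0.0037. With a library left out the lowest and highest log2 fold changes were -0.0302 and 0.0117 for Ifnar1, -0.0093 and 0.0191 for Ifngr2, -0.0077 and 0.0316 for Usp18, -0.0185 and 0.0082 for Ifih1, -0.0356 and 0.0138 for Ifi204 and -0.0152 and 0.0396 for Ifit1. The cause was not tested. In the last 200 bases before the start site, 9 of 39 members held the GAS core (23.1%, all genes 6.38%) in place of 15, and 17 held the ISRE core (43.6%, all genes 2.65%), since the window is shorter. With the replicate number as a block, 5597 genes, 26 members (8 higher, 18 lower, Irf2 among them at an adjusted p of 0.025) and 52 other pathway genes (53 as reported) were called. Samples of the same number correlated at 0.063 to 0.13 in their deviations, and those of different numbers at -0.12 to 0.13. Not every library correlated best with its own number, so the numbers were not taken to pair the samples. The correlations fell into blocks. Replicates 1 and 4 of different genotypes correlated at 0.076 and 0.13, and replicates 2 and 3 at 0.048 and 0.075. Replicates 1 or 4 against 2 or 3 were all negative (-0.12 to -0.036). No fit used these blocks, the labels do not explain them, and their cause was not tested. Depth limits Socs1, Ciita, Gbp4, Gbp5, Gbp8, Ifi205 and Ifnb1, which rest on few reads.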
